A study of Mus musculus with 48 samples.

Results

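The epidermal differentiation complex is a cluster of genes for the proteins that form and fill the cornified layer of the skin. Its genes were taken from the count table as the identifiers whose mouse symbol begins with Lce, Sprr or S100a, or is Flg, Flg2, Hrnr, Rptn, Tchh, Tchhl1, Crnn, Crct1, Ivl or Lor, with 10 or more counts in at least 4 of the 48 libraries. Of 62 identifiers with such symbols, 43 met this limit, of 24996 identifiers in the table and 18044 genes tested. They were 12 late cornified envelope genes, 8 small proline-rich genes, 13 S100 identifiers, 7 fused-type genes, and Ivl, Lor and Crct1. In all, 42 of the 43 lie on mouse chromosome 3 between 90511034 and 93564645 (GRCm38.p6), a span of 3054 kb. The exception, S100a11-ps, is an annotated pseudogene of S100a11 on chromosome 12 that meets the symbol rule without belonging to the cluster. The 19 identifiers left out were 8 Lce, 8 Sprr and 3 S100 identifiers, with at most 15, 8 and 8 counts in any library; all 6 Lce3 identifiers and Sprr3 were among them.

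Keratinocytes leaving the basal layer switch on these genes in sequence. Involucrin and the small proline-rich proteins are cross-linked early under the cell membrane by transglutaminases. Loricrin and the late cornified envelope proteins reinforce the envelope so formed. Filaggrin, of the fused-type genes, bundles keratin filaments and gives rise to natural moisturising factor. The S100 proteins are small calcium binding proteins, some made throughout the epidermis and others by immune cells or the hair follicle.

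Total RNA depleted of ribosomal RNA had been sequenced from epidermis of aged mice of 80 to 90 weeks and of adult mice of 18 to 25 weeks. Both ages were sampled at ZT0, ZT4, ZT8, ZT12, ZT16 and ZT20, where ZT (Zeitgeber time) counts the hours from lights on. There were 4 libraries at each time in each age, 24 per age in 12 groups, and the labels name no treatment or engineered allele in either age. The titles mark age with the letters O and Y, read here as aged and adult from the treatment text. The sources used here give neither strain nor sex, and do not say that replicates came from different mice. The p-values below therefore refer to the spread between these libraries, which may be technical in part. The libraries held between 40761084 and 49229498 counts (median 45299730), and the 43 identifiers took 0.0995% to 0.335% of them. In 27 of them every library had 10 or more counts. Keratinocyte markers differed widely in level (CPM, counts scaled to a common library size). Krt14 of the basal layer had a mean of 2946 CPM in aged and 2357 CPM in adult libraries. Krt10 of the suprabasal layers had 4044 CPM in aged and 4363 CPM in adult libraries. Krt2, on the same list as Krt10, had only 3.28 CPM in aged and 3.62 CPM in adult libraries. In such bulk samples, fewer cells of a type and less RNA per cell cannot be told apart.

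Over all 6 times, 9 of the 43 genes were lower in aged epidermis (20.9%, where 16.2% of all 18044 genes tested were lower) and 1 was higher (2.33%, where 17% of all genes were higher). A gene was called when the adjusted p of edgeR's quasi-likelihood test, corrected over all genes tested, was under 0.05. The 9 were involucrin (Ivl), loricrin (Lor), Sprr1a, Sprr4, Lce6a, filaggrin (Flg), Flg2, repetin (Rptn) and S100a16; the higher one was S100a11-ps. The other 33 did not pass, among them all 11 Lce1 genes. The median log2 fold change of aged over adult was -0.32 over the 43 and 0.01 over all genes tested. The fold change was below 0 in 37 of the 43 (86.0%, against 47.8% of all genes), and below 0 at every one of the 6 times in 11 (25.6%, against 9.69% of all genes). At an unadjusted p under 0.05, 14 were lower (32.6%, against 21% of all genes). Without the 8 libraries of ZT20, 6 of the 9 still passed, and without aged ZT20 replicates 1 and 2, 8 of the 9. Over all genes, calls in either direction numbered 5976 with all libraries, 3461 without ZT20 and 5381 without those 2 replicates.

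**Figure D1:**
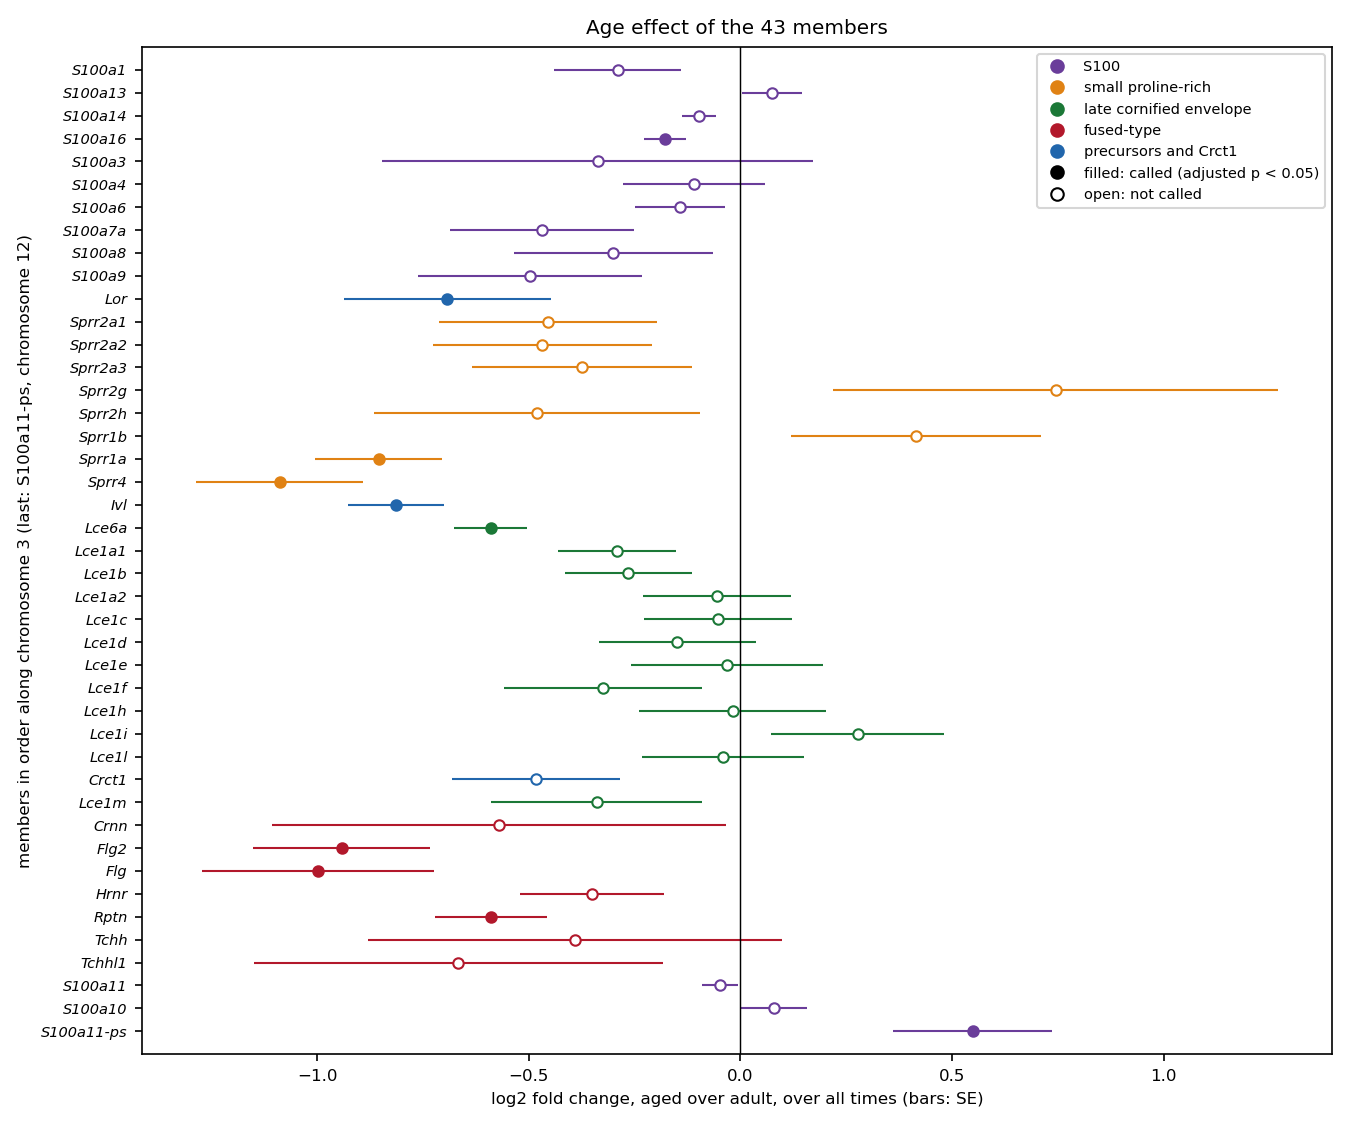
Log2 fold change of aged over adult epidermis over all times for each of the 43 identifiers, listed from top to bottom in their order along chromosome 3, with the S100a11-ps pseudogene last; bars are SE, filled points passed the test and colours mark the family. Filled points left of 0 stand for the 9 lower genes, and Sprr1a, Sprr4, Ivl and Lce6a follow each other in the list.

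Promoter sequences were available for 37 of the 43, including all 9 lower genes, from 250 bases before to 50 after the annotated start (RefSeq, GRCm38.p6). They are shown for 6 of the lower genes and for Lce1m, a member of the Lce1 group, because they differ in one short motif. The motif TGANTCA (N, any base) is a loosened form of TGAGTCA, a site for AP-1 (dimers of Fos and Jun proteins). Capitals mark it and TATAAA, the TATA box, both searched on both strands. Each is written 5′ to 3′ on the strand of its gene and ends at the last base before the start, except Ivl, whose window stops where the annotated span of the gene begins and whose TATAAA, 29 bases before the start, lies past it.
Sprr1a (chr3:92485882-92486031, minus strand): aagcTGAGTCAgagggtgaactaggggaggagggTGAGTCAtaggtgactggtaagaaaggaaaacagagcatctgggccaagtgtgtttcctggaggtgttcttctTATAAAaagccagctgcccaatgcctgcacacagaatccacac
Ivl (chr3:92573791-92573885, minus strand): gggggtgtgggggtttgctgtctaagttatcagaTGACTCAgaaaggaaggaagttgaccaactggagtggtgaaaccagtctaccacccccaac
Lor (chr3:92083143-92083292, minus strand): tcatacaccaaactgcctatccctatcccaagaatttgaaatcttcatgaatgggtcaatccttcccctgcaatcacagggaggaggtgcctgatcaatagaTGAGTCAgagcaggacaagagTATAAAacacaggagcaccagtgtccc
Flg2 (chr3:93197123-93197272, plus strand): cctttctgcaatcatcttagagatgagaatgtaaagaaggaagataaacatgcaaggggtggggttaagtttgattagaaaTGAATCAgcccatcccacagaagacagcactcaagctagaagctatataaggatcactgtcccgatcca
Flg (chr3:93273396-93273545, plus strand): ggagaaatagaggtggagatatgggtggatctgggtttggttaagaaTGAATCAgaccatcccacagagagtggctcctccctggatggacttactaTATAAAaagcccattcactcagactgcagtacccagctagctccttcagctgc
Rptn (chr3:93393549-93393698, plus strand): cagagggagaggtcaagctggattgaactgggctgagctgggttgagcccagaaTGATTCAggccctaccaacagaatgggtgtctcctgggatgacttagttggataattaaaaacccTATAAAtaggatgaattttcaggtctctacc
Lce1m (chr3:93019062-93019211, minus strand): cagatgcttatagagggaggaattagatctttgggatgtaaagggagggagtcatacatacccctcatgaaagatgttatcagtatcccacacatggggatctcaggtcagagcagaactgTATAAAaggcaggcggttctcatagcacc
TGANTCA was found in the promoters of 7 of the 9 lower genes (77.8%: Flg, Flg2, Ivl, Lor, Rptn, S100a16 and Sprr1a). The lower genes Sprr4 and Lce6a, whose windows are not shown, did not hold it. A gene was counted if any of its annotated starts held the motif. S100a16 held it at -192 from 1 start and not at its other start. Of the other 28 genes of the complex with a promoter, 5 held it (17.9%: Crnn, S100a11, Sprr1b, Sprr2h and Tchhl1), and none of the 10 Lce1 promoters did. Among all 27025 genes with a promoter of this length 9.0% held it, and among the 2174 of them that were tested and lower in aged epidermis 7.1%. The match began 116 bases before the start in Ivl, 48 in Lor, 69 in Flg2, 103 in Flg and 96 in Rptn, and Sprr1a held a match at 146 and another at 116 bases. With the stricter letters TGAGTCA, which on the other strand read TGACTCA, 3 of the 9 lower genes held it (33.3%: Ivl, Lor and Sprr1a), against 2 of the other 28 (7.1%) and 5.9% of all genes, so that Flg, Flg2, Rptn and S100a16 entered through the looser letters. TATAAA was found in 6 of the 9 and in 10 of the other 28, 16 of 37 in all (43.2%), against 15.7% of all genes. GGAATG, the core of sites for TEAD factors, was found in 8 of the 37 (21.6%, against 16.6% of all genes), of which Lce6a was lower. These motifs do not overlap each other in the sequences shown. A match describes the letters of the window and is no evidence of binding, and the comparison was made with the calls known.

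Among the envelope precursors, involucrin, the early scaffold of the envelope, had 37.7 CPM at the lowest, 62.7 at the median and 96.8 at the highest of the 24 aged libraries, against 47.99, 108 and 202 CPM of the 24 adult libraries. Every aged library lay below the adult median, although the ranges overlapped. Ivl fell by 0.81 on the log2 scale (SE 0.11; adjusted p = 7.12e-07, edgeR), was lower at each of the 6 times, and passed the test without any 1 library and under every alternative tried. Loricrin, the main component of the mature envelope in mice, had 2.94, 6.18 and 20.1 CPM in aged libraries, against 3.87, 10.4 and 67.1 CPM in adult libraries (lowest, median and highest). A single adult library at ZT12 reached 67.1 CPM, far above the other adult libraries, and the groups overlapped widely. Lor fell by 0.69 (SE 0.24; adjusted p = 0.0269, edgeR), and the call was lost without adult ZT12 replicate 2, adult ZT16 replicate 1 or adult ZT4 replicate 2 (adjusted p up to 0.0688) and without the ZT20 libraries (0.122). Crct1, a small cysteine-rich protein, had -0.48 on the log2 scale and did not pass in edgeR (SE 0.20; adjusted p = 0.0565), and passed as lower with DESeq2.

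Small proline-rich proteins bridge other proteins of the envelope. Of the 8 genes, Sprr1a and Sprr4 fell and 6 did not pass (median log2 fold change of -0.46). Sprr1a had 20.7, 33.5 and 75.3 CPM in aged libraries, against 18.9, 62.2 and 112 CPM in adult libraries (lowest, median and highest). A single adult library, ZT16 replicate 4, lay below the aged median, and it lay below every aged library as well. Sprr1a fell by 0.85 (SE 0.15; adjusted p = 3.51e-05, edgeR). Sprr4 had 2.74, 5.65 and 11.7 CPM in aged libraries, against 3.14, 11.2 and 27.2 CPM in adult libraries. It showed the largest fall of the 9, by 1.09 (SE 0.20; adjusted p = 5.95e-05), and the same adult library was its lowest adult value. The 3 Sprr2a genes had log2 fold changes between -0.47 and -0.37 with adjusted p of 0.163 or more. They can hardly be read apart, since 96.3% of the 50-base windows of Sprr2a1 and 96.5% of those of Sprr2a2 occur in other genes, mostly in each other. At ZT8 Sprr2a1 had 7.31, 6.90, 6.31 and 3.46 CPM in the 4 aged libraries, against 39.2, 18.6, 13.0 and 17.6 CPM in the 4 adult libraries. These groups did not overlap, yet the log2 fold change of -1.88 did not pass (adjusted p = 0.115).

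Sprr1b, a close relative of Sprr1a that is induced in stressed keratinocytes, had 0, 0.552 and 5.97 CPM in aged libraries, against 0.0823, 0.513 and 1.31 CPM in adult libraries (lowest, median and highest). Its log2 fold change of 0.41 (SE 0.30) did not pass (adjusted p = 0.291), and a single aged library at ZT12 held the 5.97 CPM. Sprr2g, annotated as a transcribed pseudogene, ran between 0 and 0.443 CPM in aged and 0 and 0.300 CPM in adult libraries and reached 10 counts in 4 libraries, and Sprr2h in 7; neither passed (log2 fold changes of 0.74 and -0.48).

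Of the late cornified envelope genes, Lce6a fell and the 11 Lce1 genes did not pass. Lce6a had 1.32, 2.01 and 2.92 CPM in aged libraries, against 2.02, 2.79 and 4.72 CPM in adult libraries (lowest, median and highest), so that no adult library lay below the aged median. It fell by 0.59 (SE 0.09; adjusted p = 1.78e-06, edgeR) and kept the call under every alternative. RefSeq places a noncoding gene, Gm35639, over the whole of Lce6a; it was not analysed here, and the strand setting of the counting is not given. The Lce1 genes had a median log2 fold change of -0.06, between -0.34 (Lce1m, adjusted p = 0.305) and 0.28 (Lce1i, adjusted p = 0.307). The lowest adjusted p among them was 0.105, for Lce1a1, and 10 of the 11 share between 9.7% and 27.1% of their 50-base windows with other genes, chiefly each other. Lce1i at ZT0 was the reverse of Lce6a, with 0.465, 0.267, 0.268 and 0.558 CPM in the 4 aged libraries, against 0.128, 0.255, 0.209 and 0.0875 CPM in the 4 adult libraries; all aged lay above all adult libraries, and the difference did not pass (adjusted p = 0.169).

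Of the 7 fused-type genes, whose products join an S100-like head to long repeats, Flg2, Flg and Rptn fell (median log2 fold change of -0.59). Flg2, a filaggrin relative of the granular layer, had 141 CPM at the lowest, 329 at the median and 816 at the highest of the 24 aged libraries, against 289, 672 and 1749.9 CPM of the 24 adult libraries. Most aged libraries lay below the adult median, and the groups overlapped. It fell by 0.94 (SE 0.21; adjusted p = 0.000711, edgeR). Filaggrin, the source of natural moisturising factor, had 0.525, 1.10 and 4.94 CPM in aged libraries, against 0.331, 2.35 and 8.60 CPM in adult libraries (lowest, median and highest) and fell by 1.00 (SE 0.27; adjusted p = 0.00519). Its lowest value of all was that of adult ZT16 replicate 4, and the groups overlapped. Without the ZT20 libraries Flg no longer passed (adjusted p = 0.0625). Within the Flg transcript 79.2% of 50-base windows occur more than once, as do 65.3% in Flg2 and 69.1% in Hrnr. How the counting treated reads that map to several places is not given, so their levels are uncertain in both ages. Repetin, an envelope precursor of upper layers, had 1.58, 3.51 and 6.43 CPM in aged libraries, against 1.36, 5.18 and 9.04 CPM in adult libraries. The groups overlapped, adult ZT16 replicate 4 again being the lowest of all, and Rptn fell by 0.59 (SE 0.13; adjusted p = 0.000849). Hornerin (Hrnr), another filaggrin-like protein, had a log2 fold change of -0.35 and did not pass (adjusted p = 0.109). Trichohyalin (Tchh) and Tchhl1 of the hair follicle and cornulin (Crnn) had values of -0.39, -0.67 and -0.57 with SE of 0.49, 0.48 and 0.54, the widest of the family, and did not pass.

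**Figure D2:**
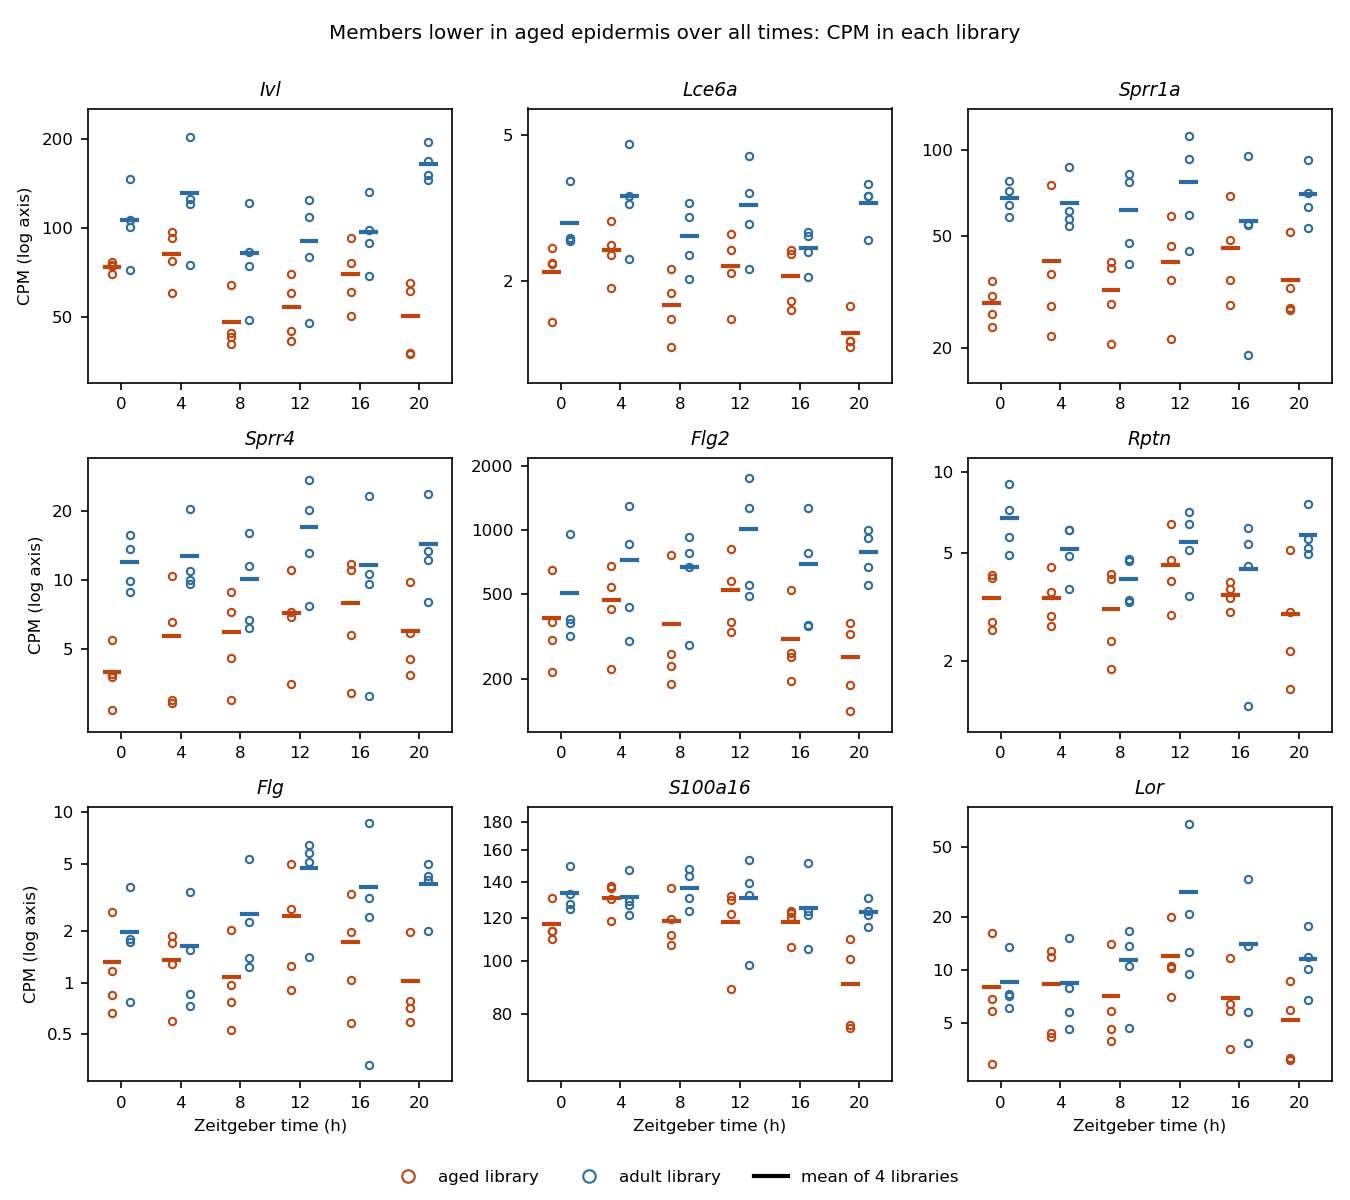
CPM on a log axis in each library against Zeitgeber time (h) for the 9 genes lower in aged epidermis, with aged libraries (left of each time) and adult libraries (right) as open circles and the mean of each 4 as a line. For Ivl, Lce6a, Flg2 and Flg the gap at ZT20 is wider than at the other times, and single adult libraries stand high in Lor at ZT12 and low in Sprr1a, Sprr4 and Rptn at ZT16.

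Of the 13 S100 identifiers, S100a16 fell, S100a11-ps rose and 11 did not pass (median log2 fold change of -0.14). S100a16, broadly expressed in epithelia, had 75.2 CPM at the lowest, 119 at the median and 138 at the highest of the 24 aged libraries, against 98.4, 128 and 154 CPM of the 24 adult libraries. The ranges overlapped over most of their length, and the fall was small, 0.18 on the log2 scale (SE 0.05; adjusted p = 0.0055, edgeR). It did not pass without the ZT20 libraries (adjusted p = 0.0773). Its neighbour S100a14 had a log2 fold change of -0.10 (adjusted p = 0.0539), and passed with DESeq2 and with limma. S100a8 and S100a9, the subunits of calprotectin that inflamed keratinocytes and neutrophils make, were close to the floor. S100a8 had 0.0808, 0.241 and 1.00 CPM in aged libraries, against 0.165, 0.322 and 0.936 CPM in adult libraries (lowest, median and highest), and S100a9 had 0, 0.148 and 0.618 CPM in aged libraries, against 0.103, 0.198 and 0.470 CPM in adult libraries. Neither passed (-0.30, adjusted p = 0.338; -0.50, adjusted p = 0.146). S100a7a, the mouse relative of psoriasin, had -0.47 (adjusted p = 0.0923, edgeR). With limma, S100a9 and S100a7a passed as lower.

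S100a11-ps, the pseudogene on chromosome 12, had 0.0606, 0.269 and 0.696 CPM in aged libraries, against 0.0620, 0.196 and 0.440 CPM in adult libraries (lowest, median and highest) and rose by 0.55 (SE 0.19; adjusted p = 0.0223, edgeR). Without aged ZT12 replicate 3 the adjusted p was 0.0512 and without ZT20 0.167. S100a11 itself, a partner of annexins, had -0.05 (adjusted p = 0.414). Of the 50-base windows of S100a11, 41.1% occur in other annotated genes, and of those of S100a11-ps 8.9%.

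Sprr1a, Sprr4, Ivl and Lce6a, 4 of the 9 lower genes and those with the smallest adjusted p, follow each other along the chromosome from 92483954 to 92621660, a stretch of 137.7 kb. The next genes of the complex on either side, Sprr1b and Lce1a1, did not pass (log2 fold changes of 0.41 and -0.29). Smcp, a sperm mitochondrial protein gene that lies between Ivl and Lce6a, is no member and had -0.11 (adjusted p = 0.521), from a mean of 1.37 CPM in aged and 1.53 CPM in adult libraries. Neighbours in position did not all move as a block between libraries. About their group means, Sprr1a and Sprr4 were correlated at r = 0.96 (rho = 0.96) and Ivl and Lce6a at r = 0.71 (rho = 0.65; permutation p at the smallest value that 1e+05 permutations can give, 1e-05, for each r). Across the pairs, Sprr1a and Ivl were correlated at r = 0.38 (permutation p = 0.0228). By rank, rho was 0.31 (permutation p = 0.0733), which was not under 0.05. Adjusted over the 11 pairs given a p-value, the permutation p of r was 0.0251. Those pairs were a selection from all pairs of the complex, so the adjustment does not cover the rest. The correlations between these genes are therefore a description only.

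By time, the largest number of calls fell at ZT20. There 8 of the 43 genes were lower (18.6%, where 10.5% of all genes were lower) and 1, S100a11-ps, was higher (2.33%, where 9.54% were higher). These comparisons share libraries with the one over all times. Ivl had 38.0, 37.7, 61.1 and 65.5 CPM in the 4 aged libraries, against 168, 195, 151 and 145 CPM in the 4 adult libraries at ZT20. The groups lay far apart, and the fold change was -1.70 on the log2 scale (SE 0.28; adjusted p = 0.000103, edgeR). Lce6a had 1.37, 1.32, 1.37 and 1.71 CPM in the 4 aged libraries, against 3.41, 3.40, 2.58 and 3.67 CPM in the 4 adult libraries. They too did not overlap (-1.18, SE 0.21; adjusted p = 0.000285). Flg2 had 187, 141, 365 and 324 CPM in the 4 aged libraries, against 922, 669, 555 and 999 CPM in the 4 adult libraries, again without overlap (-1.63; adjusted p = 0.0243). Flg had 0.589, 0.785, 1.99 and 0.712 CPM in the 4 aged libraries, against 4.98, 2.01, 4.01 and 4.24 CPM in the 4 adult libraries; aged replicate 3 came within a narrow margin of the lowest adult library (-1.90; adjusted p = 0.0439). Rptn (-0.97; adjusted p = 0.0313), Sprr1a (-1.01; 0.0464), S100a16 (-0.44; 0.0107) and S100a14 (-0.35; 0.0114) were also lower. All 4 aged libraries lay below all 4 adult libraries in 8 of the 43 genes at ZT20 (18.6%, against 13.7% of all genes), among them Hrnr, which did not pass (-1.05; adjusted p = 0.0702).

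Aged ZT20 replicates 1 and 2 stood lowest in several of these genes. In them S100a16 had 76.4 and 75.2 CPM, below every other library of the series, and Lor, Ivl, Rptn and S100a14 were lower than in aged replicates 3 and 4. Without both, 3 genes of the complex passed at ZT20, Ivl, Lce6a and S100a11-ps, and without either alone 3 passed. Over all genes, calls at ZT20 fell from 3616 of 18044 with all libraries to 463 of 18301 without both. Ivl and Lce6a passed without any 1 library. S100a16 and S100a14 were lost only without 1 of those replicates (adjusted p up to 0.0621 and 0.0573). Flg2, Flg and Rptn were lost without either as well, with adjusted p up to 0.0887 for Flg2 without aged replicate 2, and 0.131 for Flg and 0.136 for Rptn without aged replicate 1. They were also lost without a few other libraries of ZT20: Flg2 without adult replicate 1 or 4, Flg without aged replicate 4 or adult replicate 1, 3 or 4, and Rptn without aged replicate 4 or adult replicate 2 or 3. S100a11-ps was lost without aged ZT20 replicate 3 (adjusted p = 0.166) or adult ZT20 replicate 1, 2 or 3. Sprr1a was lost without any of 14 libraries, 7 of them from ZT20, aged replicate 1 giving the highest adjusted p (0.132). With no filter on low counts Sprr1a and Flg did not pass, nor Sprr1a with the stricter filter; DESeq2 added Sprr4 and S100a11, and limma S100a11. At ZT20 the 16 suprabasal and granular keratinocyte markers summed to 12031 to 13319 CPM in aged libraries and 17239 to 26191 CPM in adult libraries. These ranges did not overlap, and 12 of the 16 were lower (where 10.5% of all genes were lower). The 10 basal markers summed to 10810.5 to 13704 CPM in aged libraries and 8043 to 10815 CPM in adult libraries. Neither list holds a gene of the complex, and their part in the result was not tested.

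At ZT0, 1 of the 43 genes passed (2.33%, where 2.02% of all genes were lower and 2.44% higher), Sprr1a, with 26.4, 34.4, 30.5 and 23.8 CPM in the 4 aged libraries, against 77.6, 63.9, 71.7 and 58.1 CPM in the 4 adult libraries. The groups did not overlap (-1.24, SE 0.37; adjusted p = 0.0441, edgeR), but the call was lost without any 1 of 13 libraries: the 8 of ZT0, aged ZT4 replicate 1, aged ZT20 replicate 4, adult ZT4 replicate 3 and adult ZT16 replicates 2 and 3 (adjusted p up to 0.122). Without adult ZT16 replicate 4, 3 passed at ZT0, and 2 passed without 1 of aged ZT4 replicate 3, aged ZT12 replicate 2, aged ZT16 replicate 4, adult ZT12 replicate 1 and adult ZT16 replicate 1. Sprr4 at ZT0 had 3.82, 5.49, 3.93 and 2.74 CPM in the 4 aged libraries, against 13.6, 9.93, 15.7 and 8.86 CPM in the 4 adult libraries, also without overlap, and an adjusted p of 0.0529. At ZT4, ZT8, ZT12 and ZT16 none passed in edgeR, DESeq2 or limma, where, in edgeR, 0.266%, 1.16%, 0.599% and 0.881% of all genes were lower and 0.366%, 1.03%, 0.504% and 1.09% were higher. With an unadjusted p under 0.05 there were 5, 10, 7 and 3 genes of the complex (11.6%, 23.3%, 16.3% and 6.98%, against 7.47%, 20.1%, 15.2% and 18.3% of all genes). Without adult ZT8 replicate 2, 2 passed at ZT8, and without adult ZT12 replicate 1, 2 passed at ZT12. Whether the age difference of a gene varied between the 6 times was tested directly: 0 of the 43 passed in edgeR (0.283% of all genes did), 2 had an unadjusted p under 0.05 (4.65%, against 17.1% of all genes), DESeq2 called 1 and limma 0. The wider gap at ZT20 is therefore a description for these genes and no tested difference between times.

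Separation of the 4 aged from the 4 adult libraries was counted at every time. At ZT0 all aged libraries lay below all adult ones in 7 of the 43 genes (16.3%, against 8.92% of all genes): Sprr1a, Sprr4, Lce6a and Rptn of the envelope, and S100a13, S100a4 and S100a6. At ZT0 they lay above in 1, Lce1i (against 10.7% of all genes). At ZT4 they lay below in 1, S100a11, and above in none (against 1.81% and 2.67% of all genes). At ZT8 they lay below in the 3 Sprr2a genes, which share most of their sequence, and above in none (6.98% below, against 4.37% and 5.54% of all genes). At ZT12 no gene of the complex was separated either way (against 1.78% and 1.68%), and at ZT16 Sprr2g lay above and none below (against 4.62% above and 4.53% below). At ZT20, where 8 lay below, none lay above (against 12.3%).

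**Figure D3:**
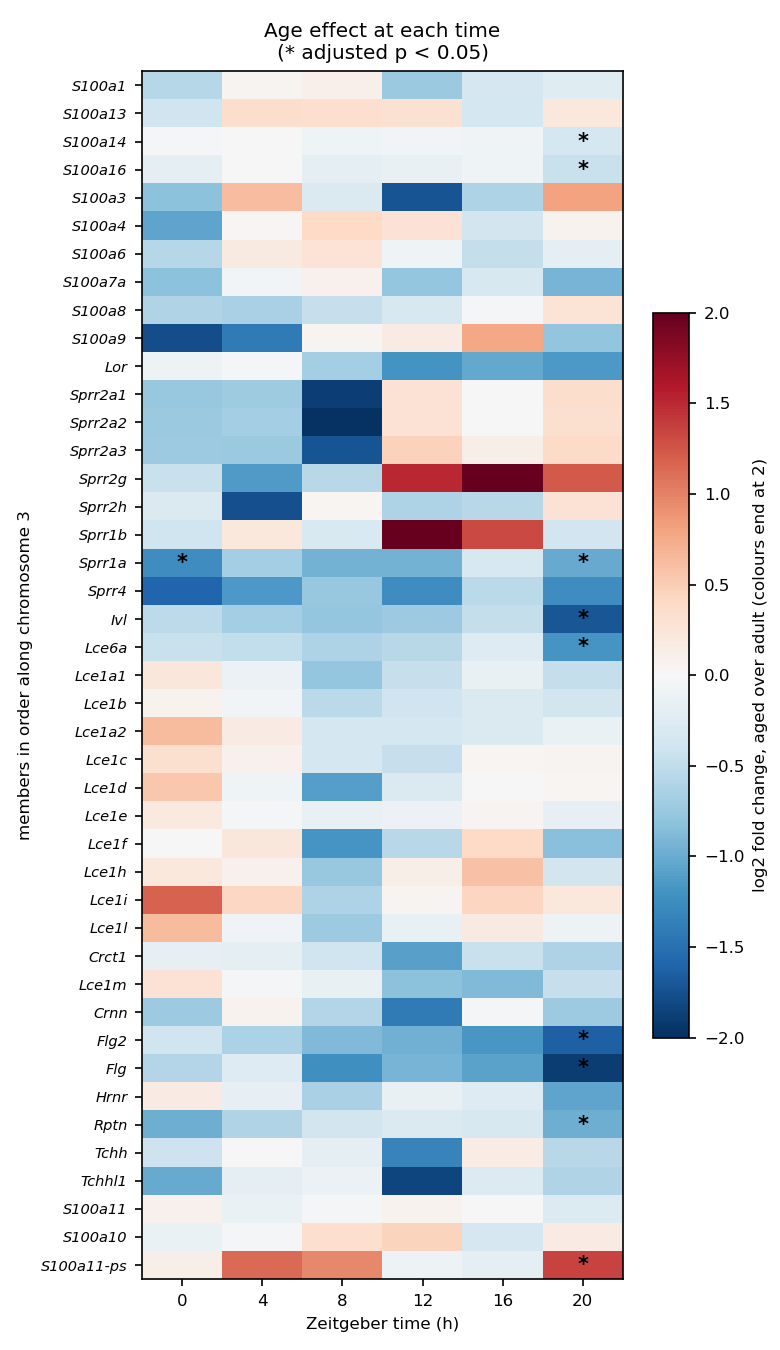
Log2 fold change of aged over adult at each Zeitgeber time (columns, h) for the 43 identifiers in chromosomal order (lines), blue below 0 and red above 0, with an asterisk where the adjusted p was under 0.05. The 9 asterisks at ZT20 mark 8 lower genes and S100a11-ps, and the Sprr2a genes are bluest at ZT8 with no asterisk.

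Few genes of the complex passed the test of a 24 h rhythm, which does not show that the others lacked one. The spread between libraries was wider in the 43 identifiers, with a median SD of log2 CPM of 0.66 against 0.20 over all genes tested. In aged epidermis 2 passed the test of a 24 h cosine, S100a11 and S100a6 (4.65%, where 5.87% of all genes passed), and in adult epidermis 2, S100a11 and S100a10 (4.65%, where 14.6% passed). At an unadjusted p under 0.05 there were 8 in aged (18.6%, against 19.3% of all genes) and 16 in adult (37.2%, against 29.4%). The fitted peak of S100a11 lay near lights on in both ages. In aged libraries it had 260.2, 225, 268 and 277 CPM at ZT0 and 193, 199, 144 and 173 CPM at ZT12, with an amplitude, the log2 distance from mean to peak, of 0.20 (SE 0.05; adjusted p = 0.0173, edgeR). In adult libraries it had 232, 271, 235 and 229 CPM at ZT0 and 159, 182, 167 and 164 CPM at ZT12, with an amplitude of 0.24 (SE 0.05; adjusted p = 0.00186). In neither age did the ZT0 and ZT12 libraries overlap. The highest group mean was at ZT0 in aged and at ZT4 in adult libraries, and the fitted peaks were ZT1.2 in aged and ZT0.6 in adult.

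S100a10, the annexin A2 partner, had 176, 148, 167 and 188 CPM in aged and 178, 189, 182 and 194 CPM in adult libraries at ZT0. At ZT12 it had 154, 162, 98.7 and 121 CPM in aged and 122, 138, 61.3 and 69.8 CPM in adult libraries. The drop between these times was clear of overlap in adult libraries and overlapped in aged ones. The amplitudes were 0.16 (SE 0.08; adjusted p = 0.483) in aged and 0.36 (SE 0.09; adjusted p = 0.00829) in adult. S100a6, calcyclin, had 209, 135, 172 and 187 CPM in aged and 142, 194, 126 and 116 CPM in adult libraries at ZT8, and 56.4, 111, 66.2 and 106 CPM in aged and 185, 116, 83.5 and 89.7 CPM in adult libraries at ZT16. The aged libraries at ZT8 all lay above those at ZT16, and the adult ones overlapped. Its amplitude was 0.47 (SE 0.11; adjusted p = 0.0197) in aged and 0.12 (SE 0.12; adjusted p = 0.752) in adult. Both aged calls were lost without a single library: S100a11 without aged ZT0 replicate 4 (adjusted p = 0.0561), and S100a6 without aged ZT8 replicate 1 or aged ZT20 replicate 2 (up to 0.0577). The adult count stood at 4 to 7 without 1 of adult ZT0 replicate 2, adult ZT4 replicate 2, adult ZT8 replicate 2, adult ZT12 replicate 4 and adult ZT16 replicates 2 and 4, the last giving 7.

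The difference of rhythms between the ages was tested for each gene. None of the 43 passed, nor did any of all 18044 genes in edgeR; 3 of the 43 had an unadjusted p under 0.05 (S100a9, Sprr1b and Sprr2g; 7.35% of all genes), and DESeq2 called 25 genes in all and 0 of these. The rhythms of S100a10 and S100a6 were thus not shown to differ between aged and adult epidermis (unadjusted p = 0.166 and 0.108). No envelope gene passed in either age in the edgeR fit over all 18044 genes; with DESeq2, and in edgeR with the stricter filter, Lor and Lce1a2 passed in adult. Lor had an amplitude of 0.32 (adjusted p = 0.724) in aged and 0.75 (SE 0.23; adjusted p = 0.0586, edgeR) in adult. S100a9, which passed in aged with DESeq2 and with limma but not in edgeR, had an amplitude of 0.97 in aged (adjusted p = 0.0537) and 0.28 in adult (0.689), at levels under 1 CPM.

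CACGTG, the canonical E-box that the clock factors BMAL1 and CLOCK bind, was searched in the same promoter windows, where it reads the same on both strands. It was found in 2 of the 37 genes, S100a11 and S100a6, against 8.1% of all genes with a promoter and 10.7% of those tested; S100a10 had no promoter among the sequences used. Both windows are shown because these genes were called rhythmic in at least 1 age, with CACGTG and TGANTCA in capitals. The S100a11 window is the 250 bases before the start, and the S100a6 window the first 30 bases of the transcript.
S100a11 (chr3:93520246-93520495, plus strand): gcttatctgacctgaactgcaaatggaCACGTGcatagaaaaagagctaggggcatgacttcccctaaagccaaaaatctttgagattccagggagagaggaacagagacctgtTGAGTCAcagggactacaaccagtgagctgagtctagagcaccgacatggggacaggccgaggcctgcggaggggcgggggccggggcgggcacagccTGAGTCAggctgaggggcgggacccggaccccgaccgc
S100a6 (chr3:90612894-90612923, plus strand): ccagagtttcgagtCACGTGccagaaggga
The E-box letters began 223 bases before the start in S100a11 and at base 15 after it in S100a6, and S100a11 also held TGAGTCA at 136 and 38 bases before the start. The match is a description and no evidence of binding.

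**Figure D4:**
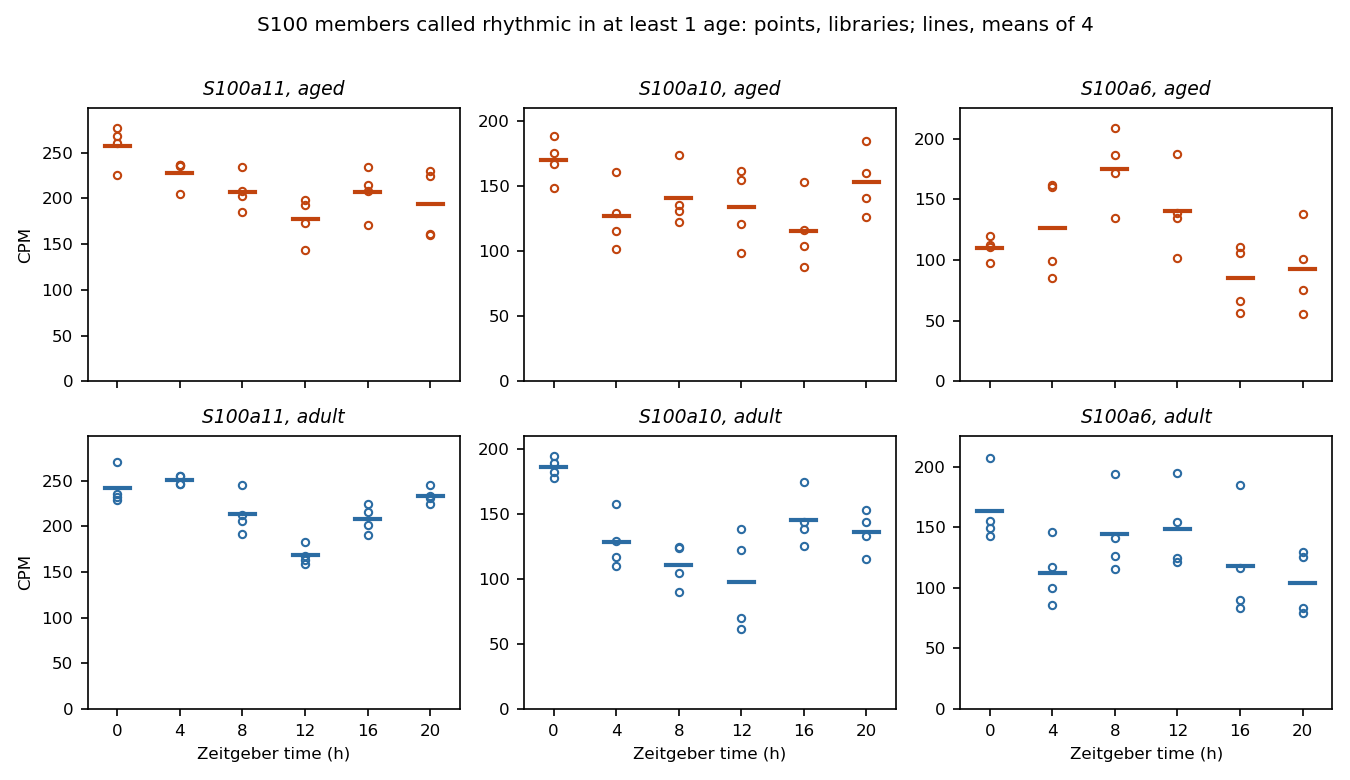
CPM in each library (open circles) and the mean of each 4 (lines) against Zeitgeber time (h) for S100a11, S100a10 and S100a6, with aged libraries in the upper panels and adult libraries in the lower ones. S100a11 is lowest at ZT12 in both ages, and S100a6 is highest at ZT8 in aged libraries.

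Levels between genes were compared per kb of exon. S100a11 led with a median of 414 in aged and 444 in adult libraries (CPM per kb), followed by S100a14 (163 in aged and 171 in adult), S100a10 (114 in aged and 108 in adult), S100a6 (81.8 in aged and 92.1 in adult) and S100a16 (73.6 in aged and 79.2 in adult), the same first 5 in both ages. Sprr1a came sixth with 41.5 in aged and 77.1 in adult, the highest of the envelope genes, ahead of Ivl with 32.6 in aged and 56.1 in adult. Flg2 stood at 15.8 in aged and 32.3 in adult and Flg at 0.0585 in aged and 0.125 in adult, the last but one or last of the 43. Lor had 3.48 in aged and 5.83 in adult CPM per kb. How reads that map to several places were counted is not given, so the levels and ranks of Flg, Flg2, Hrnr and the Sprr2a genes are uncertain. Whether Sprr1a stood above them is therefore uncertain too.

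The complex varied between libraries of the same age and time more than most genes. The SD of log2 CPM about the group means had a median of 0.66 over the 43 and of 0.20 over all genes tested, or 0.17 over the 14533 genes with a mean log2 CPM of 0 or more. It ran from 0.14 for S100a14 to 2.09 for Crnn. Tchh, Tchhl1, S100a3 and Crnn had 1.85 to 2.09. Tchh, which hardens the inner root sheath of the hair follicle, had 6.51, 37.2 and 535 CPM in aged libraries, against 7.21, 53.4 and 465 CPM in adult libraries (lowest, median and highest). At ZT4 it had 29.7, 7.51, 535 and 14.3 CPM in the 4 aged libraries, against 11.3, 465, 99.4 and 7.59 CPM in the 4 adult libraries. A single library in each age was far above the rest there, and the same libraries were high in S100a3, a hair cuticle protein, with 18.1 CPM in aged replicate 3 and 10.5 CPM in adult replicate 2.

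Deviations from the group means were compared with the mean of marker lists over the 48 libraries; 215 such relations of 43 genes with 5 lists were computed, and each r given with a list had the smallest permutation p possible, 1e-05 (adjusted over the 215, 9.3e-05), and each rho one of 2e-05 or less, unless another is given. Tchh, Tchhl1, Crnn and S100a3 moved with each other (r between 0.93 and 0.98 for the 6 pairs) and with the list of 16 hair shaft and inner root sheath genes (r = 0.98, 0.95, 0.96 and 0.98; rho = 0.96, 0.94, 0.95 and 0.98). Without the 2 libraries farthest from the median of the list, r was still 0.97, 0.94, 0.95 and 0.98. Among envelope genes, Ivl and Hrnr moved with the 16 suprabasal and granular markers (r = 0.89 and 0.86; rho = 0.89 and 0.86; 0.86 and 0.86 without 2 libraries). Sprr1a and Sprr4 had r = 0.32 and 0.29 with the suprabasal list (rho = 0.20 and 0.14; permutation p = 0.0823 and 0.102), and moved with the hair list (r = 0.72 and 0.69; rho = 0.65 and 0.66; 0.68 and 0.65 without 2 libraries). The hair list summed to 39.5 to 1010.3 CPM in aged libraries and 45.3 to 708 CPM in adult libraries, which overlap almost wholly, and its part in the age difference of Sprr1a and Sprr4 was not tested. The 11 Lce1 genes moved with Lor (median r of 0.77, between 0.56 and 0.91) and had a median r of -0.11 with Tchh. Flg and Flg2, neighbours of like structure, were correlated at r = 0.67 (rho = 0.64).

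Several S100 genes moved with markers of other cells. S100a4, made by Langerhans cells, fibroblasts and other motile cells, moved with the 10 Langerhans cell markers (r = 0.92, rho = 0.91; 0.90 without 2 libraries). S100a10 moved with the 10 basal keratinocyte markers (r = 0.89, rho = 0.86; 0.86), and S100a13 with both (0.78 and 0.79; rho = 0.80 and 0.79). S100a1 moved with the fibroblast markers (r = 0.82, rho = 0.82; 0.79). It moved nearly as closely with Tchh, Tchhl1, Crnn and S100a3 (r = 0.77, 0.76, 0.73 and 0.76) and with S100a6 (r = 0.79), given without a p-value. Its relation is therefore not particular to the fibroblast list. S100a8 and S100a9, which form 1 protein complex, had lower values (r = 0.29, rho = 0.15; permutation p = 0.0926 and 0.365), at counts near the floor. All these relations rest on the same 48 libraries and describe them.

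**Figure D5:**
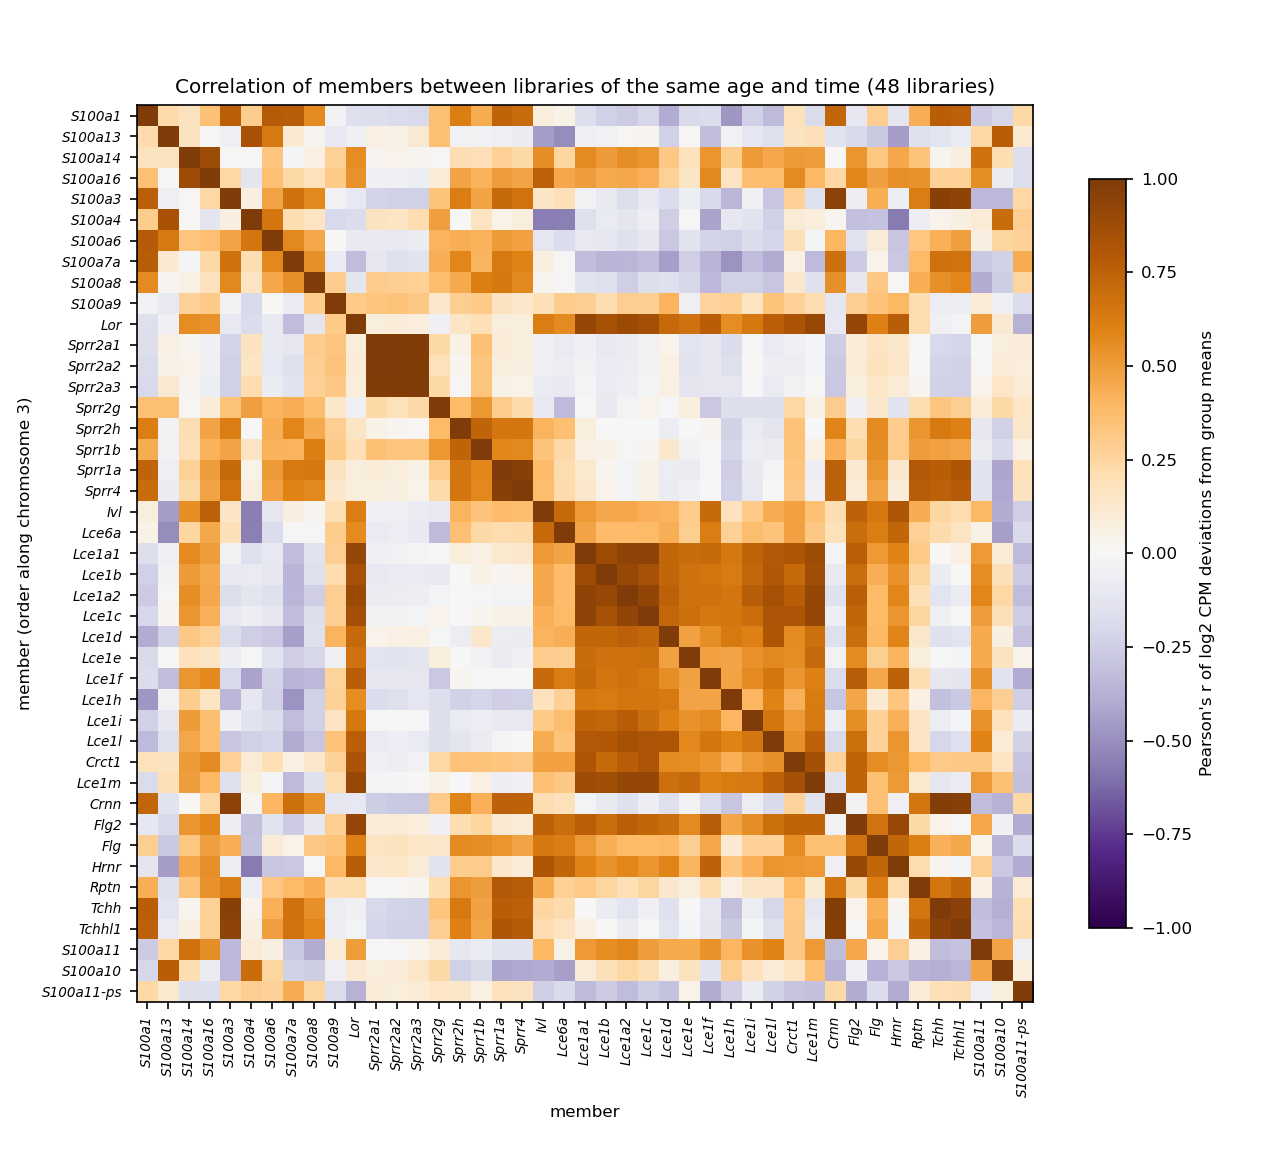
Pearson's r between the deviations of log2 CPM from the group means over the 48 libraries, for each pair of the 43 identifiers in chromosomal order, orange for r above 0 and purple below 0. Blocks of high r join the Lce1 genes with Lor and Crct1, the Sprr2a genes with each other, and Tchh, Tchhl1, Crnn and S100a3 across the length of the cluster.

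Beside the complex, other genes of the same layer were read from lists. Each list count, here and below, is to be read beside the 16.2% lower and 17% higher among all genes tested. Of the 16 suprabasal and granular markers 11 were lower and 1 was higher in aged epidermis (median log2 fold change of -0.34). The transporter Aqp3 (-0.46; adjusted p = 5.56e-07, edgeR), the corneodesmosome protease Klk7 (-0.98), the filaggrin processing protease Asprv1 (-0.68) and desmocollin 1 (Dsc1, -0.48) had the smallest p; Krt1, the early suprabasal keratin, was the higher one (0.36). Of 20 other envelope proteins and enzymes 10 were lower and 3 higher. Named for their role after the values were seen, transglutaminase 1 (Tgm1), which cross-links involucrin, was lower (-0.36; adjusted p = 0.00336) and Tgm5 too (-0.40), while Tgm3 was higher, with a mean of 20.8 CPM in aged and 10.5 CPM in adult libraries (0.94; adjusted p = 2.6e-06). The lipoxygenase Alox12b (-0.73) and the proteases Prss8 (-0.36) and St14 (-0.21) were lower. Of 5 tested genes of the cluster outside the rule, the antibacterial Pglyrp3 (-0.47) and Pglyrp4 (-0.28) and the envelope protein Kprp (-0.44) were lower and none was higher.

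Of 21 regulators of keratinocyte differentiation, 8 were lower and 4 higher (median of -0.07). Cebpb (-0.30; adjusted p = 0.00026, edgeR) and Barx2 (-0.51) were lower, and Maf (0.22) higher. Of the AP-1 genes on the list, also picked after their values were seen, Junb was higher (0.28; adjusted p = 0.0215), and Fosl2 (0.13; 0.0538) and Jund (0.12; 0.148) did not pass. Of 10 S100 partners and other EF-hand S100 genes, Tlr4, a receptor for calprotectin, was higher (0.95; adjusted p = 2.32e-07), with S100pbp (0.16), and none was lower; Anxa2, the partner of S100a10, did not pass (-0.08; 0.19). Of 10 basal markers Trp63 (0.18) and Krt14 (0.31) were higher and none lower. Of 10 wound and stress genes Hbegf (0.79), Krt16 (0.36) and Ptgs2 (0.78) were higher and Krt17 (-0.69) lower.

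Markers of other cells were counted in the same way. Of the 16 hair genes 1 was lower (Dlx3, -0.60), and of 9 genes of oral and other stratified epithelia 3 were lower. None of 10 sebaceous gland markers passed. The neutrophil list had 5 of 12 genes tested, of which 3 were higher; the defining genes Ly6g, Mpo and Elane were among the 7 too low to test. Of 11 macrophage markers 1 was higher and 1 lower, of 10 Langerhans cell markers 2 were lower, and of 10 T cell markers 1 was higher. Fibroblast (10), endothelial and muscle (10) and melanocyte and Merkel cell (6) markers had 1 higher each, and the last list 1 lower. The suprabasal markers summed to 11587 to 27648 CPM in aged libraries and 11095 to 27304 CPM in adult libraries and the basal ones to 7117 to 15436 CPM in aged libraries and 6906 to 13922 CPM in adult libraries over all times. Their part in the falls of Ivl, Flg2, Flg and Lce6a was not tested.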

How the data were processed

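The data are RNA-seq gene counts of 24 aged and 24 adult epidermis libraries at 6 times. The deposited values are whole-number counts per Entrez gene identifier, with no normalization. Per the submitters' processing notes, Trim Galore, STAR 2.7.10a and featureCounts were used with mm10 (GRCm38), and per the labels' protocols the libraries came from a stranded total RNA kit after ribosomal RNA depletion. The sources used here do not name the annotation, the strand setting or how reads mapping to several places were counted. The table held 0 columns beyond the 48 libraries. Symbols were matched for 23476 of 24996 identifiers.

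Counts were fitted with edgeR 4.0.16 in R 4.3.3 (filterByExpr at 10 counts per library and 15 in all, TMM scaling, robust quasi-likelihood test) over all 18044 genes that passed, with 1 mean per group of age and time (36 residual degrees of freedom) for age and a 24 h cosine per age (42 residual degrees of freedom) for rhythm. P-values were adjusted by Benjamini-Hochberg over all genes, with a threshold of 0.05, and the code was tested on simulated data. CPM values use TMM-scaled library sizes, and log2 CPM a prior count of 2. Correlations use deviations from group means, with 1e+05 permutations within groups. Alternatives were DESeq2 1.42.0, its size factors in edgeR, limma 3.58.1 (trend, robust), no filter, a filter of 1 CPM in 24 libraries, a threshold of 0.01, a replicate block, and fits without ZT20, without aged ZT20 replicates 1 and 2, and without each library. Values by library or by range were set for Flg, Lor, Ivl, S100a8 and S100a9, the 4 rises and 4 falls with the smallest p for age, the 3 smallest p for rhythm per age and the 2 smallest called at each time; of each marker list, up to 4 genes with the smallest p for age were named. Others were named after their values were seen. The members, the lists and the libraries left out were chosen with earlier results of these data known. In 27 of the 43 identifiers every library had 10 or more counts; counting noise is larger for the rest.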

Additional observations from a re-analysis of the deposited data

Results flagged for a closer look

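In 15 of 180 groups of 4 libraries, taken over the 15 genes named by rule, 1 library stood apart from the other 3 (8.33%). The genes share libraries and several move together, so the groups are not independent. The share over all genes is not given here, and an excess over chance was not tested. The library that stood apart was high in 13 groups and low in 2.

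Sprr1b in aged ZT12 replicate 4 had 5.97 CPM against 0.424 to 0.929 CPM in the other 3 libraries. Flg in aged ZT20 replicate 3 had 1.99 CPM against 0.589 to 0.785 CPM in the other 3 libraries, and Lce6a in aged ZT20 replicate 4 had 1.71 CPM against 1.32 to 1.37 CPM in the other 3 libraries. Both genes were called lower at ZT20, where these are the highest aged libraries. Ivl in aged ZT8 replicate 2 had 64.4 CPM against 40.8 to 44.3 CPM in the other 3 libraries.

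Aged ZT4 replicate 3, the library highest in Tchh, was high in S100a8, with 0.487 CPM against 0.198 to 0.220 CPM in the other 3 libraries, and in Sprr2g, with 0.0609 CPM against 0 in the other 3. The same library was low in S100a11, with 204 CPM against 235 to 237 CPM in the other 3 libraries. Adult ZT0 replicate 2 was high in Lor, with 13.6 CPM against 6.09 to 7.31 CPM in the other 3 libraries, in Lce6a, with 3.75 CPM against 2.57 to 2.61 CPM in the other 3 libraries, and in S100a11, with 271 CPM against 229 to 235 CPM in the other 3 libraries. Adult ZT4 replicate 2, high in Tchh, had 20.4 CPM against 9.64 to 10.9 CPM in the other 3 libraries for Sprr4.

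S100a11-ps was low in aged ZT0 replicate 4, with 0.256 CPM against 0.396 to 0.422 CPM in the other 3 libraries. Sprr2g also stood high in aged ZT16 replicate 2 (0.350 CPM against 0.0217 to 0.0470 CPM in the other 3 libraries), in aged ZT20 replicate 3 (0.369 CPM against 0 to 0.0421 CPM in the other 3 libraries) and in adult ZT16 replicate 4 (0.0207 CPM against 0 in the other 3), all at counts near the floor.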

How the results depend on the processing

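The 9 genes lower in aged epidermis all passed with DESeq2 (11 lower, with S100a14 and Crct1), DESeq2 size factors in edgeR (10, with S100a14), no filter (9), the stricter filter (9, with 29 of the 43 tested) and limma (12, with S100a14, S100a7a and S100a9). S100a16, Lor and Flg were lost without ZT20 (6 lower) and Lor without aged ZT20 replicates 1 and 2 (8). Leaving out 1 library gave 8 to 13 lower, 0 to 1 higher, 0 to 3 called at ZT0, 0 to 2 at ZT8 and at ZT12, 3 to 10 at ZT20, 1 to 3 rhythmic in aged and 2 to 7 in adult, and 0 for ZT4, ZT16, age by time and the difference of rhythms. The count of higher genes was 0 at a threshold of 0.01, with the stricter filter and without ZT20. The number called in either direction at ZT0 was 3 with DESeq2, 2 with limma, and 0 at a threshold of 0.01, without a filter and without ZT20. At ZT20, 2 were called at a threshold of 0.01, 3 without aged ZT20 replicates 1 and 2, 11 with DESeq2, 10 with limma, and 7 without a filter and with the stricter filter. Over all genes, 463 of 18301 were called at ZT20 without those 2 replicates, and 3616 of 18044 with all libraries. DESeq2 called 1 for age by time. In aged, 0 were rhythmic at a threshold of 0.01, 1 without aged ZT20 replicates 1 and 2, and 3 with DESeq2 and with limma (adding S100a9). In adult, 4 were with DESeq2 and 4 with the stricter filter (adding Lor and Lce1a2). No single gene named reversed; the cause of these shifts was not tested.

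A pairing of libraries by replicate number was not seen in the correlations of deviations. Same-numbered libraries of different groups had a median of -0.02, with 83 of 264 pairs over 0.1. Differently numbered ones had 0.007, with 301 of 792 over 0.1. Same-numbered libraries of the same time and other age had 0.08, with 10 of 24 over 0.1. Of 48 libraries, 6 lay closest to their own number. Whether the numbers mark a shared batch was not tested. With the replicate number as a block 9 genes were lower and 1 higher. Smallest counts limit S100a8, S100a9, Flg, Sprr1b, Sprr2g, Sprr2h and S100a11-ps.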

Other observations

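Adult ZT16 replicate 4 held the lowest adult value of Sprr1a (18.9 CPM), Sprr4 (3.14), Lor (3.87), Flg (0.331), Rptn (1.36), Tchh (7.21) and S100a3 (0.165). These were chosen after their values were seen.

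Among genes outside the complex, Krt76, a keratin of the palate and other specialised epithelia, averaged 4.97 CPM in aged and 25.4 CPM in adult libraries (log2 fold change -3.996, SE 1.41; adjusted p = 0.0267, edgeR). The other lower genes on the list that holds Krt76 were Krt4 (-0.43) and Muc1 (-0.31). Of 10 Langerhans cell markers only Epcam (-0.26, adjusted p = 8.27e-05, edgeR) and Mfge8 (-0.63, adjusted p = 0.0192) were called, both lower. The median log2 fold change of that list was -0.09 over all times and 0.96 at ZT20, where none passed. Of 11 macrophage markers only Cd68 (0.75) was higher and only Ly6c2 (-0.53) lower. Thy1, on epidermal T cells, was the only higher one of 10 T cell markers (0.71, adjusted p = 2.65e-05, edgeR).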
